A study of Mus musculus with 6 samples.

Results

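The genes that build and switch the Cdk1-cyclin B kinase were followed in mouse eggs arrested at metaphase of the second meiotic division (MII eggs). The set was chosen by gene symbol and holds the kinase Cdk1, the B-type cyclins Ccnb1, Ccnb2 and Ccnb3, the phosphatases Cdc25a, Cdc25b and Cdc25c, and the Greatwall pathway genes Mastl, Arpp19 and Ensa. All 10 symbols were found among the 24062 genes counted, and all 10 passed the filter on low counts that left 10667 genes for testing. RNA was sequenced from 3 groups of eggs, with 2 libraries a group that the labels call biological replicates. R26K eggs expressed H3.3R26K-eCFP, K27R eggs expressed H3.3K27R-mCherry, and H3.3 eggs expressed H3.3-eGFP, the histone variant without a substitution. Every group came from superovulated HISRainbow;Figla-iCre females aged 8 weeks, so that the reference eggs also carried the transgene and the recombinase. Figla-iCre is a recombinase driven by the promoter of an oocyte gene, and eggs were assigned to a histone form by the colour seen in the confocal microscope. Each form had its own fluorescent tag, so the effect of a tag and that of a substitution cannot be told apart. The number of eggs and of females behind a library is not given in the sources used here.

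Cdk1 bound to a B-type cyclin is the maturation promoting factor, the kinase activity that drives the oocyte into meiosis and holds the egg at metaphase until fertilization. Wee and Myt1 kinases keep Cdk1 off by phosphorylation and Cdc25 phosphatases remove those phosphates, while Mastl (Greatwall) phosphorylates Arpp19 and Ensa, which then inhibit the phosphatase PP2A-B55 that opposes Cdk1. Cyclin B is destroyed through the anaphase-promoting complex with Cdc20, which Fbxo43 (Emi2) holds back in the egg. Egg chromatin makes almost no new RNA, and the use of stored messages, cyclin B1 among them, is controlled by lengthening of the poly(A) tail through cytoplasmic polyadenylation elements (CPEs).

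The library kit primes on poly(A) tails, so the 3′ ends of some of the members are shown. They are printed with the hexamer (AATAAA or ATTAAA) that directs polyadenylation and, where present, a CPE. The sequences are 30 bases of GENCODE M21 transcripts (build GRCm38/mm10), written as DNA on the strand of the transcript. Capitals mark the hexamer and the CPE letters TTTTAT.
Cdk1: ctaatggcacggAATAAAaggattattcac
Ccnb1: ctttatgttgctAATAAAcatagttttcga
Ccnb2: gtattgaaggaaAATAAAgctattgatcta
Cdc25a: gcaggctctgcaAATAAAagtgatcttgaa
Arpp19: cgAATAAAtggatctacctaatTTTTATtg

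These stretches lie at chr10:69335156-69335185 (Cdk1, minus strand), chr13:100778656-100778685 (Ccnb1, minus strand), chr9:70407693-70407722 (Ccnb2, minus strand), chr9:109893861-109893890 (Cdc25a, plus strand) and chr9:75060277-75060306 (Arpp19, plus strand), each in the 3′ UTR of the gene. Within the last 100 annotated bases, a hexamer was found in 9 of the 10 members, all but Mastl, and in 82.6% of 9785 tested genes. A CPE spelled TTTTAT or TTTTAAT was found there in 2 of the 10 members, Ccnb3 and Arpp19, and in 21.2% of those genes. Over whole 3′ UTRs, 8 of the 10 members held at least 1 such match on the transcript strand. The 3′ UTR of Mastl, of 2829 bases, held 7 matches, and that of Cdc25a, of 1676 bases, held 6. Ccnb1 held 4 matches in 1028 bases and Ccnb2 held 1 match in 227 bases. Cdc25b and Cdc25c held 0. For whole 3′ UTRs no share over all genes was computed, so these counts do not show whether the members are rich in CPEs. A match is a run of letters at an annotated end, and the ends used in eggs may differ from it.

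Library totals ranged from 33786225 to 39603440 counts in R26K, from 10803477 to 11557291 in K27R and from 11452906 to 12748821 in H3.3. Levels are CPM, reads of a gene relative to all reads of its library, with trimmed-mean (TMM) scaling, and Pearson's r between replicates on log2(CPM + 1) across genes was 0.934 in R26K, 0.790 in K27R and 0.712 in H3.3. At least 9 of 10 egg marker genes had counts in every library, with Gdf9, an oocyte growth factor, at 11020 to 16113 CPM. Of 20 markers of cumulus and granulosa cells, the somatic cells around the egg, reads were found for 15 and 12 in the R26K libraries, for 12 and 4 in the K27R libraries and for 5 and 11 in the H3.3 libraries, and Pgr and Lhcgr were at 0 in all 6. Without Serpine2, the most abundant gene of that list, their summed level was 154 to 169.7 CPM in R26K, 23.0 to 307 CPM in K27R and 35.0 to 569 CPM in H3.3. The share of genes with almost no reads differed between libraries. Of genes at 20 to 50 CPM in the others, 0.22% and 0.44% had at most 1 count in R26K replicates 1 and 2. The same pairs of shares were 0.71% and 19.00% for K27R and 17.68% and 22.76% for H3.3.

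Per kilobase of exon, Ccnb1 and Ccnb2 messages had the highest mean levels, Mastl and Arpp19 came next, and Cdk1 itself, the 3 Cdc25 genes, Ensa and Ccnb3 were low. The mean over the 6 libraries was 303 CPM per kilobase for Ccnb1, 284 for Ccnb2, 76.8 for Mastl and 64.3 for Arpp19. The remaining means were 8.08 CPM per kilobase for Cdc25a, 6.33 for Ensa, 5.16 for Cdk1, 4.75 for Cdc25b, 1.43 for Ccnb3 and 0.952 for Cdc25c. The narrowest gap between a B-type cyclin and Mastl was in H3.3 replicate 1, with Ccnb2 at 145 and Mastl at 106 CPM per kilobase. With exon length, the gap between Arpp19 and the lower members held in each library for all 6 of them. For Cdc25a it depends on the length used. With the longest transcript, of 3755 bases where the exons span 8023, Cdc25a exceeded Arpp19 in R26K replicate 2. Within the pairs Ccnb1 and Ccnb2, and Mastl and Arpp19, the order changed between libraries, and among the 6 low members the neighbours did not separate beyond their spread in H3.3 eggs.

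**Figure D1:**
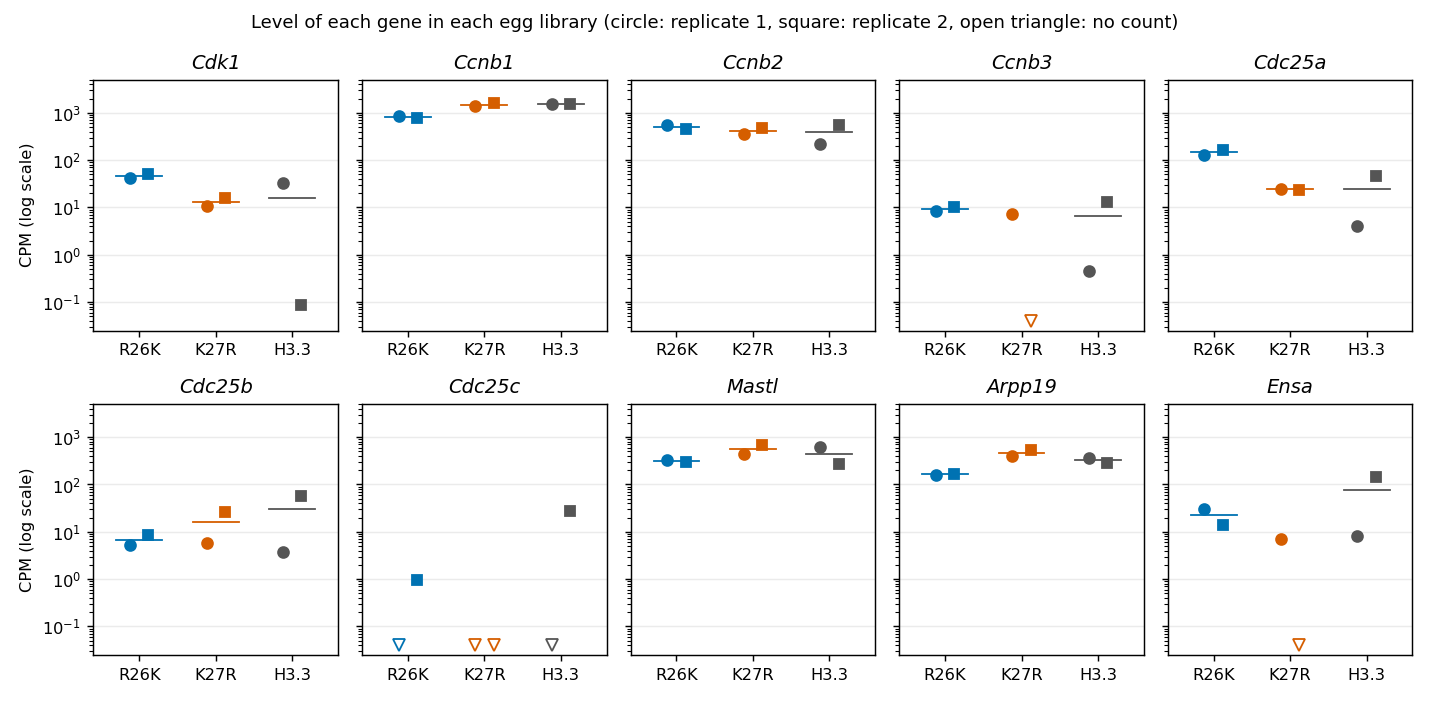
Level of each of the 10 genes in CPM (log axis) in R26K, K27R and H3.3 eggs, with a circle for replicate 1, a square for replicate 2, a line for the mean where both libraries had counts, and an open triangle for a library without a count. R26K libraries lie below the other 4 for Ccnb1 and Arpp19 and above them for Cdk1 and Cdc25a, while H3.3 libraries lie far apart for Cdk1, Cdc25a, Cdc25b, Cdc25c, Ccnb3 and Ensa.

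Comparisons are written as R26K over H3.3, K27R over H3.3 and K27R over R26K, and a positive log2 difference means that the first-named group is higher. With edgeR's quasi-likelihood test, with adjustment over every tested gene and a call at 0.05, 0 of the 10 members were called in R26K over H3.3, where 0.619% of all tested genes were called. In K27R over H3.3, 0 of 10 members and 0.00% of all tested genes were called, and in K27R over R26K 0 of 10 members and 0.375%. At an unadjusted p under 0.05, 2 members, Ccnb1 and Arpp19, were lower in R26K than in H3.3, as were 4.14% of all tested genes (21.7% in either direction). In K27R over H3.3, 0 members passed that mark, beside 7.12% of all tested genes. In K27R over R26K, Ccnb1 and Arpp19 again passed it and were higher in K27R, as were 3.43% of all tested genes (13.2% in either direction). DESeq2 called 2 members in R26K over H3.3 (18.5% of the genes it tested), 1 in K27R over H3.3 (7.15%) and 3 in K27R over R26K (8.95%).

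Whether the libraries of a pair of groups overlap was read without a test. In R26K over H3.3, 2 of 10 members had both R26K libraries higher (44.8% of all tested genes) and 2 had both lower (15.3%), so that 4 did not overlap (60.1%). In K27R over H3.3, 1 member was higher (15.9%) and 1 lower (9.62%) without overlap (25.6% in all). In K27R over R26K, 3 members were higher (17.5%) and 4 lower (36.3%) without overlap (53.8% in all). Both R26K libraries stood above the other 4 for Cdk1 and Cdc25a (26.9% of all tested genes) and below them for Ccnb1 and Arpp19 (8.55%), which makes 4 of 10 members outside the other 4 libraries, beside 35.5% of all tested genes.

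**Figure D2:**
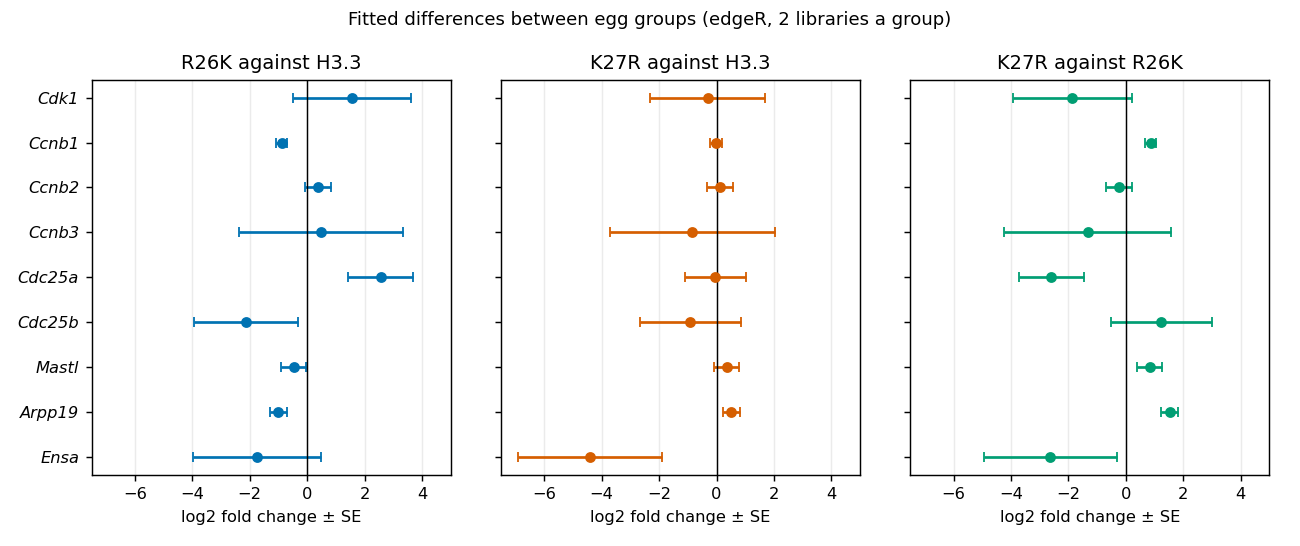
Fitted log2 fold changes with their standard errors (edgeR, 2 libraries a group) for 9 members in each of the 3 comparisons, positive where the first-named group is higher. The narrow bars belong to Ccnb1 and Arpp19, and the bars of Cdk1, Ccnb3, Cdc25a, Cdc25b and Ensa span more than 1 unit on either side. Cdc25c was fitted but is left out, since each group had counts in at most 1 library.

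Cdk1, the kinase itself, is encoded on chromosome 10 from 69335146 to 69352938 (minus strand) in 8 exons. Its level was 42.8 and 51.6 CPM in R26K eggs, 10.5 and 15.6 CPM in K27R eggs, and 32.1 and 0.0848 CPM in H3.3 eggs. The low H3.3 library holds 1 read of Cdk1, with an exact 95% interval of 0.00215 to 0.473 CPM that covers counting error only, while its partner holds 419 reads. R26K libraries were the highest and did not overlap with either other group, K27R libraries lay within the range of the H3.3 pair, and the H3.3 pair spanned the widest range. In bulk libraries, fewer eggs with the message and less message per egg cannot be told apart, for this gene or any other.

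The log2 difference of Cdk1 was 1.55 ± 2.05 (SE) for R26K over H3.3 (edgeR adjusted p = 0.74), −0.30 ± 2.01 for K27R over H3.3 (adjusted p = 1) and −1.86 ± 2.07 for K27R over R26K (adjusted p = 0.93). Leaving out H3.3 replicate 2 gave 0.56 and leaving out H3.3 replicate 1 gave 9.01 for R26K over H3.3, so the value rests on which H3.3 library is used. The genes at 20 to 50 CPM with at most 1 count were most frequent in the same H3.3 replicate 2. Their part in the Cdk1 value was not tested.

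Ccnb1, cyclin B1, the main mitotic partner of Cdk1, is encoded on chromosome 13 from 100778650 to 100786570 (minus strand) in 9 exons. Its level was 853 and 788 CPM in R26K eggs, 1397 and 1592 CPM in K27R eggs, and 1504 and 1542 CPM in H3.3 eggs. Both R26K libraries were the lowest of the 6, and K27R and H3.3 libraries overlapped. The higher library exceeded the lower by 1.08-fold in R26K, 1.14-fold in K27R and 1.03-fold in H3.3, the closest replicates of any member in H3.3.

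Ccnb1 differed by −0.89 ± 0.20 on the log2 scale for R26K over H3.3, which did not pass the edgeR test (unadjusted p = 0.00423, adjusted p = 0.127). The difference was −0.03 ± 0.20 for K27R over H3.3 (edgeR adjusted p = 1) and 0.86 ± 0.20 for K27R over R26K (unadjusted p = 0.00489, adjusted p = 0.193). DESeq2 called it lower in R26K than in H3.3 (adjusted p = 1.28e-04) and higher in K27R than in R26K (adjusted p = 8.50e-04). Over all alternatives the adjusted p ranged from 0.000128 to 0.816 for R26K over H3.3 and from 0.00085 to 1 for K27R over R26K. Ccnb1 has 44.2% GC, and the median over tested genes is 48.7%. A correction for GC content and length gave −0.54 for R26K over H3.3 and 0.49 for K27R over R26K, with edgeR adjusted p = 0.263 and 0.451. Reads of Ccnb1 are uncertain, since 4 pseudogenes match it at 96.6% to 99.2% identity over at least 383 bases, none is listed in the count table, and the treatment of reads that fit several places is not given in the sources used here.

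Ccnb2, cyclin B2, a partner of Cdk1 that supports meiotic resumption in the mouse oocyte, is encoded on chromosome 9 from 70407692 to 70421547 (minus strand). Its level was 545 and 454 CPM in R26K eggs, 364 and 474 CPM in K27R eggs, and 223 and 551 CPM in H3.3 eggs. The 3 groups overlapped, and the H3.3 pair spanned all the other libraries. Ccnb2 differed on the log2 scale by 0.37 ± 0.45 for R26K over H3.3, 0.12 ± 0.45 for K27R over H3.3 and −0.25 ± 0.45 for K27R over R26K (edgeR adjusted p = 0.712, 1 and 1). Leaving out H3.3 replicate 1 turned the first value to −0.15 and the second to −0.39.

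Ccnb3, cyclin B3, which mouse oocytes need for the metaphase to anaphase step of the first meiotic division, lies on chromosome X from 6979652 to 7041619 (minus strand). It was low at 8.54 and 10.1 CPM in R26K eggs, 7.40 and 0 CPM in K27R eggs, and 0.459 and 12.8 CPM in H3.3 eggs. The library with 0 counts has a floor, set by 3 counts, of 0.285 CPM. R26K replicates were close together, 1.18-fold apart, and lay between the H3.3 values, which were 27.9-fold apart. The log2 difference was 0.49 ± 2.86 for R26K over H3.3, −0.84 ± 2.87 for K27R over H3.3 and −1.33 ± 2.90 for K27R over R26K (edgeR adjusted p = 0.96, 1 and 1).

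Within the B-type cyclins, scaled per kilobase of exon, Ccnb1 made up 36.1% and 38.5% of the summed level in R26K eggs, 58.1% and 54.9% in K27R eggs, and 71.0% and 50.2% in H3.3 eggs. The R26K libraries had the lowest shares and did not overlap with the others. The ratio of Ccnb1 to Ccnb2 was 0.569 and 0.631 in R26K eggs, 1.39 and 1.22 in K27R eggs, and 2.45 and 1.02 in H3.3 eggs. The summed level of the 3 cyclins overlapped between groups, at 485 to 559.95 CPM per kilobase in R26K, 571 to 687 in K27R and 502 to 728 in H3.3. Which of the cyclins leads in R26K eggs depends on the length used, since with the longest transcript Ccnb1 made up 49.0% and 51.5% there, 70.1% and 67.4% in K27R eggs and 80.6% and 63.1% in H3.3 eggs. A length scales a gene alike in every library, so changing it is no check on R26K having the lowest Ccnb1 shares.

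**Figure D3:**
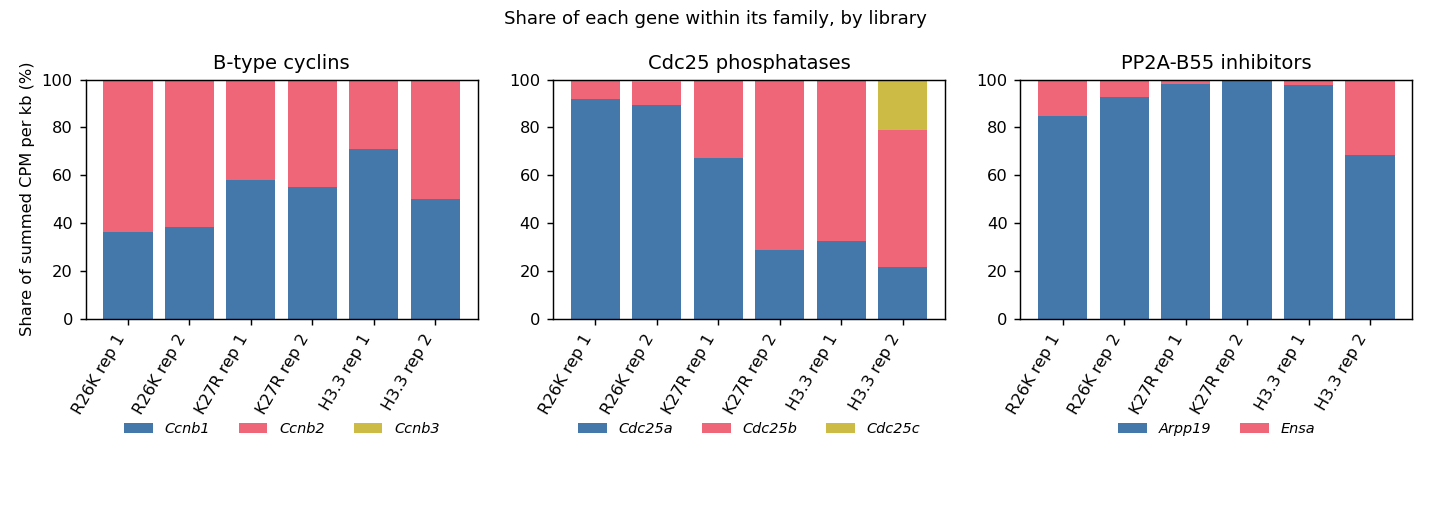
Share (%) of each gene in the summed CPM per kilobase of exon of its family, by library, for the B-type cyclins, the Cdc25 phosphatases and the PP2A-B55 inhibitors. Ccnb1 takes 36.1% and 38.5% in R26K and at least 50.2% elsewhere, Cdc25a takes 89.3% to 91.9% in R26K and at most 67.2% elsewhere, and Arpp19 takes at least 68.6% in every library.

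Cdc25a, a phosphatase that activates Cdk1 and Cdk2, is encoded on chromosome 9 from 109875579 to 109893895 (plus strand). Its level was 127 and 164 CPM in R26K eggs, 25.04 and 23.06 CPM in K27R eggs, and 3.98 and 45.6 CPM in H3.3 eggs. Both R26K libraries exceeded all the others, and the K27R pair lay within the H3.3 range. The log2 difference was 2.56 ± 1.13 for R26K over H3.3 (edgeR unadjusted p = 0.0628, adjusted p = 0.246), −0.04 ± 1.07 for K27R over H3.3 (adjusted p = 1) and −2.60 ± 1.13 for K27R over R26K (unadjusted p = 0.0599, adjusted p = 0.409). Leaving out H3.3 replicate 2 gave 5.19 for R26K over H3.3, and leaving out H3.3 replicate 1 gave 1.67.

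Cdc25b, the phosphatase that mouse oocytes need to resume meiosis, lies on chromosome 2 from 131186949 to 131198497 (plus strand). It had 5.21 and 8.45 CPM in R26K eggs, 5.69 and 26.5 CPM in K27R eggs, and 3.83 and 56.6 CPM in H3.3 eggs. All 3 groups overlapped, and H3.3 replicate 2 was the highest library. For Cdc25b the log2 difference was −2.14 ± 1.81 for R26K over H3.3, −0.91 ± 1.75 for K27R over H3.3 and 1.23 ± 1.77 for K27R over R26K (edgeR adjusted p = 0.55, 0.965 and 0.985). Its exons overlap those of Spef1 by 92 bases on the opposite strand, and the kit does not mark strand.

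Cdc25c, the remaining phosphatase of the family, lies on chromosome 18 from 34732993 to 34751533 (minus strand) and was close to undetected. It had 0 and 0.936 CPM in R26K eggs, 0 and 0 CPM in K27R eggs, and 0 and 27.1 CPM in H3.3 eggs, the last from 320 reads. Only H3.3 replicate 2 held more than 31 reads, so a fold between groups would be that library's value and none is given. DESeq2 called it lower in K27R than in either other group, while the edgeR adjusted p for K27R over H3.3 was 0.532. Its exons share 623 bases with Gm3550 on the opposite strand.

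As shares of the summed Cdc25 level per kilobase, Cdc25a made up 91.9% and 89.3% in R26K eggs, 67.2% and 28.8% in K27R eggs, and 32.6% and 21.5% in H3.3 eggs. The R26K pair stood above all others with no overlap. Cdc25b made up 8.10% and 9.90% in R26K eggs, 32.8% and 71.2% in K27R eggs and 67.4% and 57.5% in H3.3 eggs. With the longest transcript as length, the Cdc25a share was 95.3% and 93.4% in R26K eggs. It was 78.4% and 41.7% in K27R eggs, and 46.1% and 29.8% in H3.3 eggs. Here too the length scales a gene alike in every library, so it is little check on their order.

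Mastl, the Greatwall kinase, is encoded on chromosome 2 from 23115606 to 23156024 (minus strand) in 12 exons. Its level was 337 and 301.5 CPM in R26K eggs, 449.7 and 685 CPM in K27R eggs, and 614 and 274 CPM in H3.3 eggs. R26K lay below both K27R libraries, and the H3.3 pair overlapped with both groups. The log2 difference was −0.47 ± 0.44 for R26K over H3.3, 0.36 ± 0.44 for K27R over H3.3 and 0.83 ± 0.44 for K27R over R26K (edgeR adjusted p = 0.592, 0.879 and 0.533). With the correction for GC content and length the first value turned to 0.24 and the last was 0.20, and without H3.3 replicate 1 the first was 0.22.

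Arpp19, a substrate of the Greatwall kinase, is encoded on chromosome 9 from 75037614 to 75060313 (plus strand). Its level was 159 and 166 CPM in R26K eggs, 408 and 527 CPM in K27R eggs, and 362 and 289 CPM in H3.3 eggs. R26K libraries were the lowest, K27R libraries were the highest, and no groups overlapped. Replicates lay within 1.04-fold in R26K, 1.29-fold in K27R and 1.25-fold in H3.3.

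Arpp19 differed by −1.002 ± 0.285 on the log2 scale for R26K over H3.3 (unadjusted p = 0.0119), and by 1.52 ± 0.29 for K27R over R26K (unadjusted p = 0.00168). Neither passed edgeR's test over all genes, with adjusted p = 0.199 and 0.126. The difference was 0.52 ± 0.28 for K27R over H3.3 (edgeR adjusted p = 0.532). DESeq2 called the gene lower in R26K than in H3.3 (adjusted p = 0.0119) and higher in K27R than in R26K (adjusted p = 1.79e-04), and over all alternatives the adjusted p ranged from 0.0119 to 0.872 for the first and from 0.000179 to 0.651 for the second. The correction for GC content and length, where Arpp19 has 40.7% GC, left −0.25 for R26K over H3.3 (edgeR adjusted p = 0.68) and 0.83 for K27R over R26K (edgeR adjusted p = 0.437).

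Ensa, the paralogue of Arpp19, lies on chromosome 3 from 95624993 to 95632102 (plus strand). It had 30.8 and 13.95 CPM in R26K eggs, 7.15 and 0 CPM in K27R eggs, and 7.96 and 143 CPM in H3.3 eggs. K27R libraries were the lowest, and H3.3 replicate 2 was far above the rest, 17.97-fold above its partner. Ensa differed on the log2 scale by −1.75 ± 2.24 for R26K over H3.3, −4.39 ± 2.50 for K27R over H3.3 and −2.64 ± 2.32 for K27R over R26K (edgeR adjusted p = 0.728, 0.533 and 0.854). Without H3.3 replicate 2 the first value was 1.49 and the second −1.16. With K27R replicate 1 left out, the remaining K27R library had no Ensa count and the fitted values give no bound, and with K27R replicate 2 left out the last value was −1.64. Arpp19 made up 84.8% and 92.8% of the summed level of the pair per kilobase in R26K eggs, 98.4% and 100% in K27R eggs, and 98.0% and 68.6% in H3.3 eggs.

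Ensa, Cdc25b, Cdc25c and Ccnb3 all had their highest level in H3.3 replicate 2, and so did Ccnb2, at 551 CPM beside 545 CPM in R26K replicate 1. That library had 11 of the 20 cumulus and granulosa markers counted, fewer than both R26K libraries and K27R replicate 1. The summed level of the whole list was 2080 and 1964 CPM in R26K eggs, 1958 and 1416 CPM in K27R eggs, and 975.1 and 1808 CPM in H3.3 eggs, and without Serpine2 it was highest in H3.3 replicate 2, at 569 CPM. The part of such cells in these 5 values was not tested. For the 9 members other than Cdc25c, the median log2 difference was −0.47 for R26K over H3.3, −0.04 for K27R over H3.3 and −0.25 for K27R over R26K. With Cdc25c, which had counts in at most 1 library of each group, the medians were −0.68, −0.17 and −0.79. The medians over all tested genes were 0.66, 0.12 and −0.32, and over the 2857 more abundant genes, those averaging 50 CPM or more, they were 0.03, 0.02 and 0.0010. R26K over H3.3 and K27R over H3.3 share the same H3.3 libraries, so their values are not independent.

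The genes around the kinase were taken from 6 lists of 44 genes, of which 40 were tested. By edgeR, 1 was called higher and 0 lower in R26K over H3.3, 0 were called in K27R over H3.3, and 1 was called lower and 0 higher in K27R over R26K. Both calls were Ywhab, which encodes a 14-3-3 protein of the kind that holds phosphorylated Cdc25 inactive. DESeq2 called 8 higher and 6 lower of 37 with an adjusted p in R26K over H3.3, beside 18.5% of all genes it tested. It called 2 higher and 2 lower of 38 in K27R over H3.3 (7.15%), and 3 and 5 of 37 in K27R over R26K (8.95%). At an unadjusted p under 0.05 in edgeR, 10 were higher and 5 lower in R26K than in H3.3, beside 21.7% of all tested genes in either direction. In K27R over H3.3, 2 were higher and 2 lower (7.12% of all tested genes), and in K27R over R26K 5 were higher and 6 lower (13.2%). The same all-gene shares stand beside the counts of each list below.

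**Figure D4:**
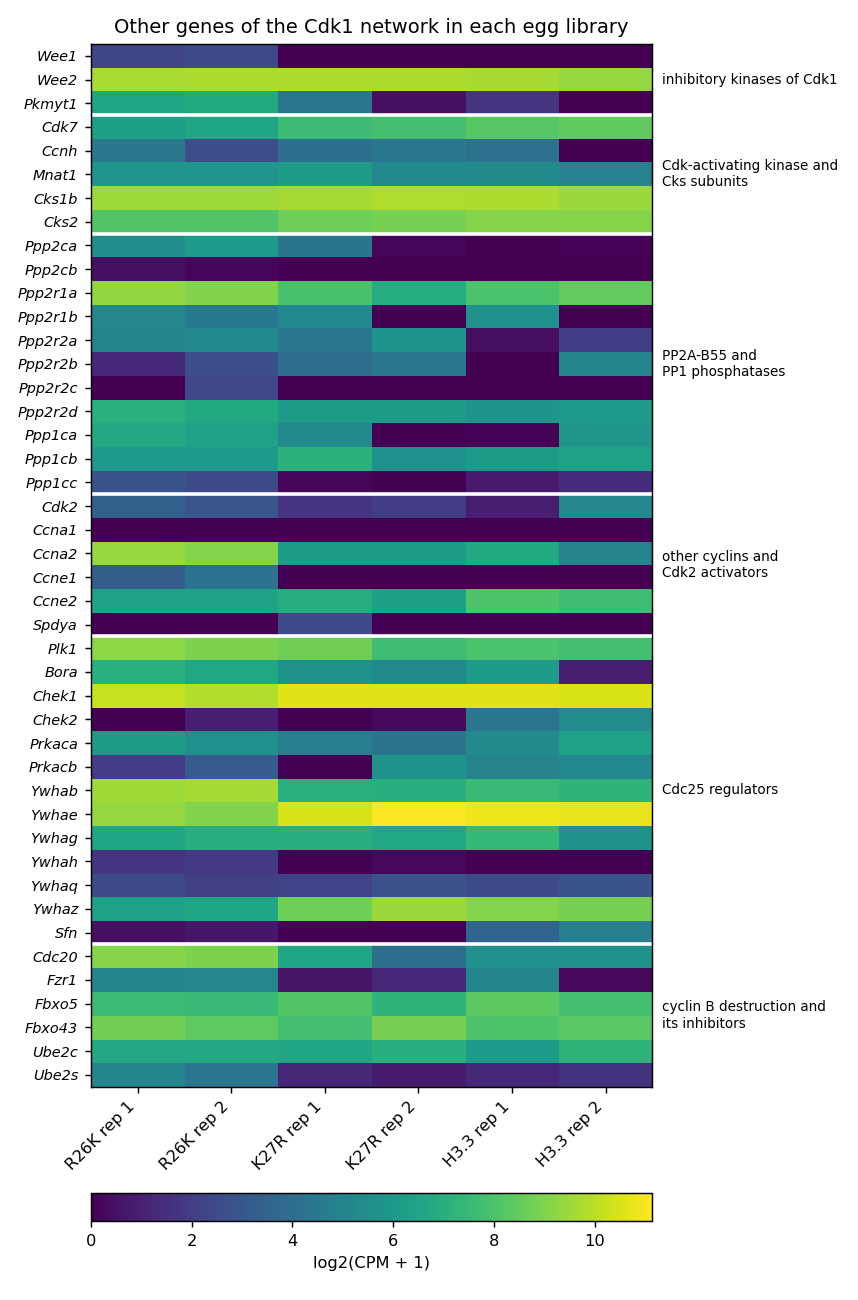
Level as log2(CPM + 1) of the 44 other genes of the Cdk1 network (rows, by list) in each library (columns). Ywhab, Ccna2 and Cdc20 are brighter in both R26K libraries than in the other 4, Ywhae and Ywhaz are darker there, and Wee2 is about equally bright in all 6.

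Ywhab had 749 and 804.5 CPM in R26K eggs, 133 and 128 CPM in K27R eggs, and 179.8 and 151 CPM in H3.3 eggs. R26K libraries were the highest by far and K27R libraries the lowest, with no overlap. Ywhab rose in R26K over H3.3 by 2.23 ± 0.26 on the log2 scale (edgeR adjusted p = 0.0329) and fell in K27R over R26K, with −2.57 ± 0.26 (edgeR adjusted p = 0.0264), while K27R over H3.3 gave −0.34 ± 0.25 (edgeR adjusted p = 0.66). The first call was lost in a fit of only the groups compared (adjusted p = 0.0705), without K27R replicate 1 (0.112), without K27R replicate 2 (0.113) and without H3.3 replicate 2 (0.0663), and the second without K27R replicate 1 (0.165) and without K27R replicate 2 (0.308), all by edgeR. Over all alternatives the adjusted p ranged from 6.58e-12 to 0.113 and from 1.25e-16 to 0.308. Of 13 Cdc25 regulators this gene alone was called by edgeR, and DESeq2 called 2 higher and 3 lower in R26K over H3.3, 0 and 2 in K27R over H3.3, and 2 and 1 in K27R over R26K. Ywhaz and Ywhae, also 14-3-3 genes and named after their values were seen, had the opposite sign. Ywhaz had 80.9 and 94.3 CPM in R26K eggs, 406 and 697 CPM in K27R eggs, and 547 and 459 CPM in H3.3 eggs, with −2.52 ± 0.35 on the log2 scale for R26K over H3.3 (edgeR adjusted p = 0.0511) and 2.65 ± 0.36 for K27R over R26K (edgeR adjusted p = 0.0556). Ywhae had 663 and 529 CPM in R26K eggs, 1412 and 2260.4 CPM in K27R eggs, and 1878 and 1743 CPM in H3.3 eggs, with −1.60 ± 0.29 and 1.62 ± 0.29 in the same comparisons (edgeR adjusted p = 0.0816 and 0.111). Among the settings that kept all 6 libraries, edgeR called both genes in both comparisons with no filter on low counts and with the replicate block. DESeq2 called both genes in both comparisons. EdgeR called Ywhaz alone in both with upper-quartile scaling, with a filter at a mean of 10 CPM, and with the GC and length correction plus the block. In R26K over H3.3 it also called Ywhaz alone with a robust fit and with thinning. Over the 13 genes the median log2 difference was −0.47, 0.02 and −0.83 for R26K over H3.3, K27R over H3.3 and K27R over R26K.

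Of 3 inhibitory kinases of Cdk1, edgeR called 0 in any comparison, and DESeq2 called 1 higher in R26K over H3.3, Pkmyt1, and 0 in the others. At an unadjusted p under 0.05 in edgeR, 2 were higher in R26K over H3.3 and 1 was lower in K27R over R26K. Wee2, the form of Wee kinase known from oocytes, had 851 and 866 CPM in R26K eggs, 866 and 866 CPM in K27R eggs, and 827 and 658 CPM in H3.3 eggs, and was named after its values were seen. Wee1 had 4.01 and 4.62 CPM in R26K eggs and 0 counts in all 4 K27R and H3.3 libraries, at least 17.8-fold higher in R26K than the floor of 3 counts per library in H3.3. Pkmyt1, the Myt1 kinase, had 93.1 and 108 CPM in R26K eggs, 19.75 and 0.380 CPM in K27R eggs, and 2.22 and 0 CPM in H3.3 eggs. Its log2 difference for K27R over H3.3 was 3.17 ± 2.30 (edgeR adjusted p = 0.652), and the 2 groups overlapped.

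Cdk7, the Cdk-activating kinase, had the smallest p of its list of 5 in every comparison, with 0 of 5 called by edgeR. DESeq2 called 2 lower in R26K over H3.3, 0 in K27R over H3.3 and 1 higher in K27R over R26K, and at an unadjusted p under 0.05 in edgeR 2 were lower, 0 passed and 2 were higher in those comparisons. It had 77.8 and 92.6 CPM in R26K eggs, 197 and 234 CPM in K27R eggs, and 299 and 344 CPM in H3.3 eggs. The groups did not overlap, with R26K lowest and H3.3 highest. For Cdk7 the log2 difference was −1.92 ± 0.32 for R26K over H3.3 (edgeR adjusted p = 0.0677), −0.57 ± 0.31 for K27R over H3.3 (adjusted p = 0.529) and 1.34 ± 0.31 for K27R over R26K (adjusted p = 0.188). With a filter at a mean of 10 CPM, edgeR called Cdk7 lower in R26K than in H3.3 (adjusted p = 0.0406), and DESeq2 called it lower there (adjusted p = 2.51e-06) and higher in K27R than in R26K (adjusted p = 0.00408). Over all alternatives the adjusted p ranged from 2.51e-06 to 0.309 for the first and from 0.00408 to 1 for the second, and the correction for GC content and length gave 0.89 for the second. The list's median was −0.12, 0.09 and 0.50 in these comparisons.

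Of 11 phosphatase genes of PP2A-B55 and PP1, 9 were tested and 0 called by edgeR. DESeq2 called 2 higher in R26K over H3.3, 2 higher in K27R over H3.3 and 1 lower in K27R over R26K, and the same counts passed an unadjusted p under 0.05 in edgeR. Ppp2ca, a catalytic subunit of PP2A, had 43.7 and 64.0 CPM in R26K eggs, 19.2 and 0.0949 CPM in K27R eggs, and 0 and 0.0848 CPM in H3.3 eggs. The H3.3 value is 1 read in all, and the ratio of scaled counts for R26K over H3.3 was 1325. Its interval of 238 to 52359 covers counting error only and leaves out the spread between libraries. The edgeR adjusted p for this Ppp2ca difference was 0.213. Ppp2r2a, the B55-alpha subunit, had 31.2 and 35.5 CPM in R26K eggs, 19.8 and 53.3 CPM in K27R eggs, and 0.383 and 3.22 CPM in H3.3 eggs, with a log2 difference of 4.34 ± 1.62 for K27R over H3.3 (edgeR adjusted p = 0.522). Ppp2r1a, the scaffold subunit, had 639 and 526 CPM in R26K eggs, 245.5 and 119.6 CPM in K27R eggs, and 251 and 349 CPM in H3.3 eggs, with −1.67 ± 0.42 for K27R over R26K (edgeR adjusted p = 0.223). The correction for GC content and length gave −0.65 for that Ppp2r1a difference (edgeR adjusted p = 0.623), and over all alternatives its adjusted p ranged from 0.00551 to 0.986. DESeq2 called Ppp2ca in R26K over H3.3 (adjusted p = 4.65e-04), Ppp2r2a in K27R over H3.3 (adjusted p = 0.022) and Ppp2r1a in K27R over R26K (adjusted p = 0.00551). For the other 2 the adjusted p ranged from 0.000465 to 0.767 (Ppp2ca) and from 0.022 to 1 (Ppp2r2a). The list's median was 1.03, 0.02 and −0.86 in the 3 comparisons.

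Among 6 other cyclins and Cdk2 activators, 4 were tested and 0 called by edgeR. DESeq2 called 1 higher and 1 lower in R26K over H3.3, 0 in K27R over H3.3 and 1 lower in K27R over R26K. At an unadjusted p under 0.05 in edgeR, 2 were higher and 1 lower, 1 was lower, and 2 were lower in those comparisons. Ccna2, cyclin A2, had 683 and 544 CPM in R26K eggs, 65.7 and 67.3 CPM in K27R eggs, and 109 and 30.5 CPM in H3.3 eggs. R26K libraries were above the other 4, by 3.14 ± 0.63 on the log2 scale against H3.3 (edgeR adjusted p = 0.0973), and K27R over R26K gave −3.21 ± 0.63 (edgeR adjusted p = 0.131). The call on Ccna2 changed with the setting. Without a filter on low counts edgeR called both differences (adjusted p = 0.0221 and 0.0293), and so did DESeq2 (adjusted p = 2.99e-05 and 2.17e-05). EdgeR also called both with either R26K library or H3.3 replicate 1 left out, and the second in a fit of only the groups compared and without H3.3 replicate 2, and the adjusted p ranged from 2.99e-05 to 0.16 and from 2.17e-05 to 0.693. Ccne2, cyclin E2, had 83.4 and 84.15 CPM in R26K eggs, 122 and 79.6 CPM in K27R eggs, and 272 and 205 CPM in H3.3 eggs, with −1.24 ± 0.41 for K27R over H3.3 (edgeR adjusted p = 0.522).

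Of 6 genes for cyclin B destruction and its inhibitors, 0 were called by edgeR. DESeq2 called 2 higher in R26K over H3.3, 0 in K27R over H3.3 and 2 lower in K27R over R26K, and at an unadjusted p under 0.05 in edgeR 1 was higher, 0 passed and 1 was lower. Cdc20, the activator of the anaphase-promoting complex, had 561 and 497 CPM in R26K eggs, 95.03 and 16.5 CPM in K27R eggs, and 47.3 and 51.9 CPM in H3.3 eggs. R26K libraries were above the other 4, by 3.42 ± 0.81 on the log2 scale against H3.3 (edgeR adjusted p = 0.138), and K27R over R26K gave −3.25 ± 0.80 (edgeR adjusted p = 0.217). EdgeR called the first difference of Cdc20 without a filter on low counts (adjusted p = 0.042) and both with either R26K library left out, and DESeq2 called both (adjusted p = 2.22e-04 and 5.48e-04). Over all alternatives the adjusted p ranged from 0.000222 to 0.263 and from 0.000548 to 0.451. The second difference was −5.00 without K27R replicate 1 and −2.48 without K27R replicate 2, and −2.32 with the correction for GC content and length. Fzr1 (Cdh1), the other activator, had 33.6 and 34.5 CPM in R26K eggs, 0.487 and 1.33 CPM in K27R eggs, and 33.2 and 0.170 CPM in H3.3 eggs, with −4.19 ± 2.40 for K27R over H3.3 (edgeR adjusted p = 0.534). The K27R libraries lay between the H3.3 libraries. The list's median was 0.72, −0.16 and −1.70 in the 3 comparisons.

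The genes most like Cdk1 over the 6 libraries, by Pearson's r of log2(CPM + 1) among 2857 genes that averaged 50 CPM or more, were Rnps1 (r = 0.995), Kpna7, Slc30a5, Syne2 and Epb4.1 (r = 0.983). Epb4.1 had 111.9 and 109.9 CPM in R26K eggs, 32.8 and 46.0 CPM in K27R eggs, and 53.3 and 0.0848 CPM in H3.3 eggs, with the same 1-read H3.3 replicate 2. The genes most like Ccnb1 were Klhl9 (r = 0.999), Chsy1, Sept2, Spin1 and Paip1 (r = 0.996). Paip1, a partner of the poly(A)-binding protein, had 202 and 128 CPM in R26K eggs, 5563 and 7242 CPM in K27R eggs, and 6255 and 6632 CPM in H3.3 eggs. These 5 genes were chosen for their likeness to Ccnb1, and in all of them both R26K libraries lie below the other 4, as follows from that choice. The ranges of Klhl9, Chsy1, Sept2 and Paip1 are far wider than that of Ccnb1. The points share library, depth and base composition, and r is given as a description.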

How the data were processed

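RNA from 6 egg libraries was read as single-end 50-base reads after SMARTer cDNA synthesis and Nextera preparation, per the labels' protocols. The submitters' processing notes name mm10 and the tools cutadapt (1.9.1), TopHat2 (2.1.0), SAMtools (1.3) and featureCounts. The annotation and the multi-mapping and strand settings are not given in the sources used here. What the authors deposited is 1 table of raw read counts, in whole numbers with no normalization. A floor of 3 counts is 0.0813 to 0.285 CPM. Of the symbols, 98.4% matched GENCODE M21, which gave positions and lengths.

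From the deposited counts, TMM-scaled CPM were computed, and genes kept by filterByExpr were tested in 1 fit of 6 libraries with edgeR 4.0.16 (glmQLFTest, R 4.3.3), two-sided, with Benjamini-Hochberg adjustment; SE is the log2 fold change over the root of F. The fit has 3 residual degrees of freedom. Whether replicates came from different females is not in the labels, and each p-value rests on the spread among these 6 libraries only, which may be technical. An exact permutation test of 2 against 2 libraries cannot go below 0.333, so levels carry no test. Near-identical copies were searched with BLAST 2.17.0 (at least 95% over 200 bases).

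The members and lists were chosen with earlier results of these data known. Named genes are all members, each list's called genes or else its smallest p per comparison, and the 5 genes most like Cdk1 and Ccnb1. Alternatives were DESeq2 1.42.0, other scalings, filters and fits, a replicate block, a GC and length correction, thinning and each library left out. The code was run on simulated counts as a check of the code alone.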

Additional observations from a re-analysis of the deposited data

How the results depend on the processing

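By edgeR, 0 members were called under every alternative run, including each library left out; DESeq2 called 2 for R26K over H3.3, 1 for K27R over H3.3 and 3 for K27R over R26K. Of 27 member differences, with Cdc25c left out, 13 changed direction under at least 1 alternative, and the cause was not tested. With 1 library left out, the log2 difference for R26K over H3.3 ranged from −0.15 to 1.16 for Ccnb2, −0.47 to 4.32 for Ccnb3, −3.06 to 0.84 for Cdc25b, −0.94 to 0.22 for Mastl and −2.68 to 1.49 for Ensa. For K27R over H3.3 it ranged from −1.30 to 7.17 for Cdk1, −0.125 to 0.0642 for Ccnb1, −0.39 to 0.91 for Ccnb2, −10.13 to 2.99 for Ccnb3, −0.91 to 2.59 for Cdc25a, −2.40 to 2.07 for Cdc25b, −0.12 to 1.06 for Mastl, −1.54 to 10.74 for Pkmyt1 and −5.19 to 2.38 for Fzr1. For K27R over R26K it was −0.26 to 1.95 for Cdc25b. The ends −10.13 for Ccnb3 and 10.74 for Pkmyt1 give no bound. They come from fits where the remaining K27R library, for Ccnb3, or H3.3 library, for Pkmyt1, had no count. The end 7.17 for Cdk1 comes from the fit whose remaining H3.3 library, replicate 2, held 1 read of Cdk1. Mastl in R26K over H3.3 was 0.24 with the GC and length correction and 0.28 with it and the replicate block, and Ccnb1 in K27R over H3.3 was 0.0060 with upper-quartile scaling. That scaling put the median of all genes at 0.47, 0.15 and −0.10, against 0.66, 0.12 and −0.32 with TMM. Over all genes, edgeR calls in R26K over H3.3 were 43 higher and 23 lower, with 0 to 195 higher and 0 to 65 lower over the edgeR alternatives (1 and 0 with either K27R library left out, 0 and 0 in a fit of only the groups compared) and 1207 and 421 by DESeq2. In K27R over H3.3 they were 0 and 0, with 0 to 5 higher and 0 lower over those alternatives and 517 and 142 by DESeq2. In K27R over R26K they were 18 and 22, with 0 to 61 higher and 0 to 134 lower (0 and 0 with either K27R library left out) and 248 and 503 by DESeq2. Ranked by level per kilobase, 8 of 10 members kept their rank with the longest transcript as length and 8 with the coding transcript, a length chosen after seeing the data. For members with few reads, 1 to 3 reads do not separate a low level from none, and the cause of such counts was not tested.

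The labels give each group replicates 1 and 2 and do not say whether same-numbered libraries belong together. Their deviations from the group means correlated at −0.019, 0.065 and 0.008 over 2857 genes, which does not settle whether they share an origin. With the replicate block, 0 members were called in each comparison, and over all genes 195 were higher and 65 lower in R26K than in H3.3, 0 and 0 in K27R over H3.3, and 61 and 134 in K27R over R26K. The block made edgeR calls of Ccna2 and Cdc20 in R26K over H3.3 (adjusted p = 0.00741 and 0.0177) and in K27R over R26K (0.0111 and 0.0207), and of Cdk7 in R26K over H3.3 (0.0365), with 3 list genes higher and 3 lower, 0 and 0, and 2 and 3 in the 3 comparisons. The block turned Cdk1 and Cdc25a in K27R over H3.3 to 0.46 and 0.52, or 0.45 and 0.42 with the GC and length correction.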
